A study of Macaca mulatta with 30 samples.

Results

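The genes described here are the brain-derived neurotrophic factor gene, BDNF, a second neurotrophin, NTF3, the kinase receptors NTRK2 and NTRK3, the p75 receptor NGFR, and 3 sortilin-family receptors, SORT1, SORCS1 and SORCS3. They were chosen by symbol, and all 8 were found among the 15521 genes of the deposited gene table. The exons of BDNF and NTRK2 were read from the matching table of 156345 exons. RNA was sequenced from cortical area 32, a medial prefrontal area, of 30 male rhesus macaques, 1 library per animal. After an induction period, each of the 30 animals had 4% (w/v) ethanol on offer beside food and water, and drank by choice for more than 12 months with 22 hours of access a day. The 10 low drinkers (LD) met none of the other definitions and were drinkers themselves, so no group was free of ethanol. The 7 binge drinkers (BD) took at least 2 g/kg on 55% or more of the days and reached a blood ethanol of 80 mg/dl at least yearly. The 7 heavy drinkers (HD) took 3 g/kg or more on at least 20% of the days. The 6 very heavy drinkers (VHD) averaged over 3 g/kg a day and passed 4 g/kg on at least 10% of the days. The animals came from cohorts 4, 5, 7a and 7b of a primate tissue resource, whose mean ages after open access were 9.98, 7.15, 5.70 and 7.18 years. Categories and cohorts were not balanced, and only cohort 7a, with 2 VHD and 3 LD animals, held both of these categories.

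Neurotrophins are secreted growth factors that keep neurons alive and adjust the strength of their synapses. BDNF signals through the kinase receptor TrkB, the product of NTRK2, NTF3 through TrkC, the product of NTRK3, and both bind the p75 receptor encoded by NGFR, which signals alone or together with other receptors. The NTRK2 gene also gives a truncated TrkB without the kinase, which is abundant in astrocytes, and BDNF transcription in cortical neurons is driven by synaptic activity. Sortilin, the product of SORT1, binds the precursor of BDNF and sorts it toward regulated release, while SORCS1 and SORCS3 encode related sorting receptors of neurons.

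The values are normalized reads, that is, read numbers that the authors scaled to a common upper quartile across libraries, and 1 sequenced read was worth 0.656 to 2.07 normalized reads. The libraries held 4.39 M to 13.99 M reads in exons (M for mega), with a median of 9.08 M, and 6 of them held under 6 M. Of 8 listed excitatory neuron markers, 6 were in the gene table, and SLC17A7 and CUX2 were not. These 6 and the listed markers of inhibitory neurons, astrocytes, oligodendrocytes and microglia all had medians above 1 normalized read. Of the 4 choroid plexus markers, FOLR1 had a median of 0.893, while KL, CLIC6 and TTR had medians of 74.7, 38.6 and 7.06. GAD1, the enzyme that makes the transmitter of inhibitory neurons, lay between 2612 and 3731 normalized reads, and AQP4, the water channel of astrocytes, between 2822 and 5432. In such tissue RNA, fewer cells of a type and less RNA per cell cannot be told apart.

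The 8 genes spanned a wide range of levels. Per kilobase of exon, the order of the means was NTRK2 at 1522 ± 175, SORT1 at 705, NTRK3 at 398 ± 56.6, SORCS1 at 171, SORCS3 at 135, BDNF at 45.5 ± 9.51, NGFR at 3.54 ± 1.68 and NTF3 at 0.842 normalized reads (SD, n = 30). NTRK2 stood above 98.3% of the tested genes on this scale and SORT1 above 94.2%, whereas BDNF stood above 29.2% and NGFR above 1.46%. Each gene was above the next one in the order in 30 of 30 animals for every neighbouring pair except SORCS1 over SORCS3 and NGFR over NTF3, which held in 28 of 30 animals each. The receptor NTRK2 was thus measured with a median of 9057 reads per library and its ligand BDNF with a median of 199.5, between 92 and 392. At these medians, counting error alone amounts to 1.05% for NTRK2 and 7.08% for BDNF, while the coefficients of variation between animals were 11.5% and 20.9%. For NGFR, with a median of 9 reads, counting error of 33.3% stood beside a coefficient of variation of 47.4%.

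**Figure D1:**
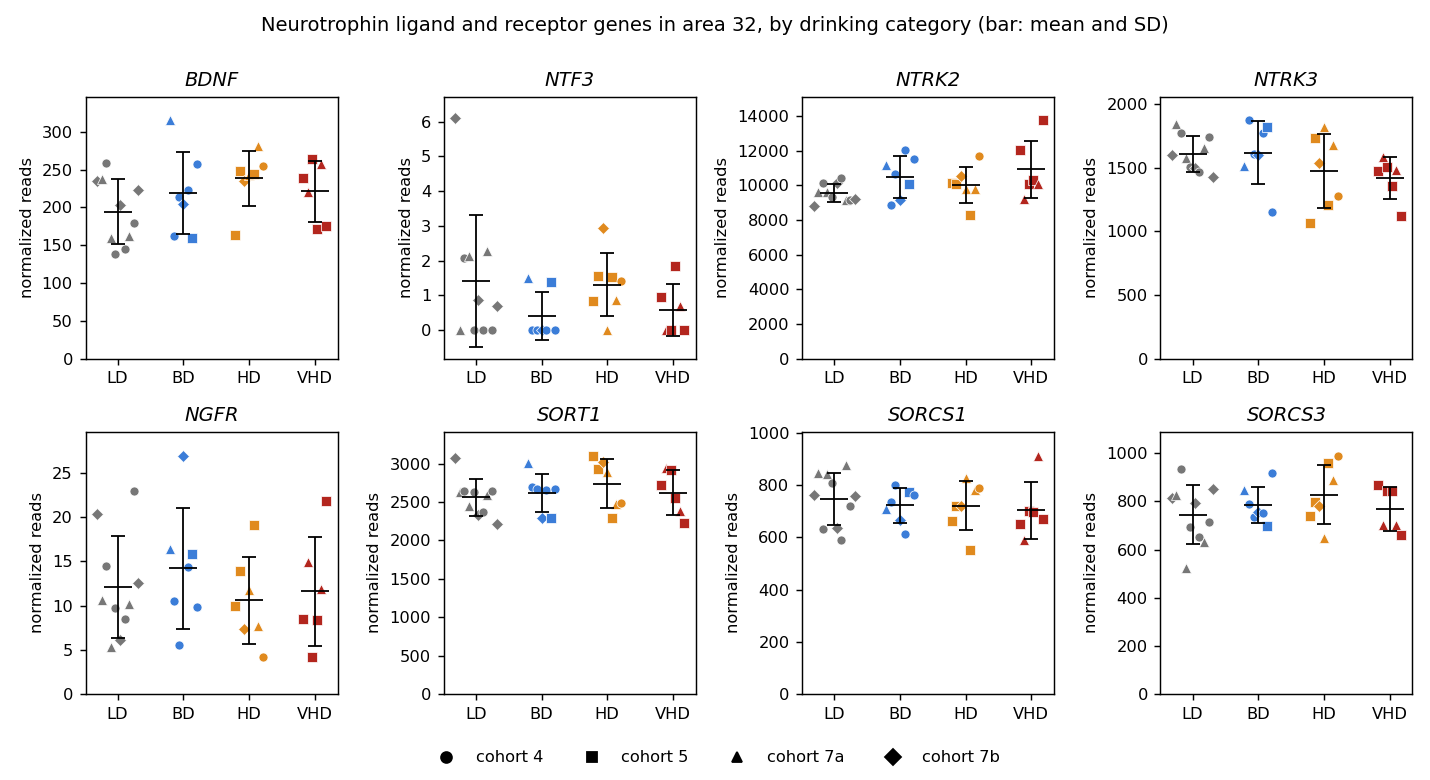
Normalized reads of each of the 8 genes (vertical axis, starting at or below 0) in each animal, by drinking category in the order LD, BD, HD, VHD. Marker shapes give the cohort, and the bars give the mean and SD of 10, 7, 7 and 6 animals. The ranges of all categories overlap for every gene, and the BDNF mean is lowest in LD animals at 194 normalized reads.

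BDNF, the main neurotrophin of the cortex, had its lowest category level in the low drinkers. The 10 LD animals ranged from 138 to 259 normalized reads with a median of 192, the 7 BD animals from 159 to 315 with a median of 214, the 7 HD animals from 164 to 281 with a median of 245, and the 6 VHD animals from 172 to 264 with a median of 229.8. The ranges overlapped throughout, yet 6 of 7 HD, 5 of 7 BD and 4 of 6 VHD animals lay above the LD mean. With cohort in the model, the limma estimate was 0.36 ± 0.18 for VHD minus LD, 0.41 ± 0.15 for HD minus LD and 0.24 ± 0.14 for BD minus LD, in log2 units with SE. The 95% interval for VHD minus LD ran from -0.0074 to 0.72. Before adjustment the p-values were 0.0545, 0.0106 and 0.0921 in that order, and the Benjamini-Hochberg adjusted p of HD against LD was 0.317 in limma. The slope over LD, BD, HD and VHD, taken as equal steps, was 0.14 ± 0.057 per step, with an unadjusted p of 0.0199 and an adjusted p of 0.745 in limma. BDNF therefore passed the threshold in no category comparison.

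The BDNF values were spread unevenly over cohorts and over library numbers. Within cohort 7a, the 2 VHD animals had a median of 239 and the 3 LD animals a median of 162 normalized reads, a difference of 0.37 ± 0.19 log2 units (unadjusted limma p = 0.0767). The slope per step was 0.27 ± 0.14 within cohort 4, 0.13 ± 0.14 within cohort 5 and 0.13 ± 0.075 within cohort 7a. In the model with a slope for each cohort, that of cohort 7b was 0.027, the lowest of the 4, and the test for a slope that differs between cohorts gave an unadjusted limma p of 0.705. Sorted over all 30 animals, the widest gap lay between 10 animals at 138 to 180 and 20 animals at 203 to 315 normalized reads. This gap covers 14.96% of the log2 range and was noticed after the values were seen. The 10 lower animals were 5 of 10 LD, 2 of 7 BD, 1 of 7 HD and 2 of 6 VHD animals, and 5 of them were among the 7 libraries of the third of 4 sets of consecutive library numbers. That set, with 5 LD, 1 HD and 1 VHD library, had a median of 162 normalized reads, against 237 in the first set, 230.2 in the second and 223 in the last. With the sets in the model, the BDNF estimates were 0.24 ± 0.17 for VHD minus LD, 0.30 ± 0.15 for HD minus LD and 0.055 ± 0.14 for BD minus LD, with unadjusted limma p-values of 0.176, 0.0611 and 0.704.

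The second neurotrophin, NTF3, was close to the limit of detection. It had 0 reads in 13 libraries, at most 6 reads in any library and 29 reads in all 30 together, so that it was not tested. The highest value, 6.11 normalized reads, was in an LD animal, and the median was 0.782 for LD animals, 0 for BD, 1.41 for HD and 0.349 for VHD. NTF4, another TrkB ligand, had 6 reads in all libraries together. At this depth these low values do not show that NTF3 and NTF4 are silent in area 32.

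NTRK2, the TrkB receptor gene, was the most abundant of the 8 genes, and its single highest value was in a very heavy drinker, while the binge drinkers had the highest median. The LD animals ranged from 8792 to 10403 normalized reads with a median of 9444, the BD animals from 8862 to 12056 with a median of 10629, the HD animals from 8256 to 11708 with a median of 10061, and the VHD animals from 9214 to 13744 with a median of 10211. The categories overlapped, and the SD was 1664 in VHD animals and 526.2 in LD animals, the least spread of the 4 categories. Above the highest LD animal lay 2 of 6 VHD, 2 of 7 HD and 4 of 7 BD animals, and 5 of 6 VHD animals were above the LD mean. The estimate was 0.20 ± 0.094 for VHD minus LD, with an unadjusted p of 0.0388 and an adjusted p of 0.948 in limma. It was 0.080 ± 0.079 for HD minus LD and 0.11 ± 0.073 for BD minus LD, with unadjusted p-values of 0.319 and 0.154. The slope was 0.061 ± 0.030 per step, with an unadjusted p of 0.0497 and an adjusted p of 0.745 in limma. Both of the highest VHD values, 12024 and 13744, were in cohort 5, which has no LD animal, and within cohort 7a the difference of VHD minus LD was 0.031 ± 0.091 log2 units.

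NTRK3, the TrkC receptor gene, had its lowest category median in the very heavy drinkers, without passing the test. The VHD animals ranged from 1124 to 1584 normalized reads with a median of 1479, against 1427 to 1848 with a median of 1588 in LD animals. All 6 VHD animals lay below the LD mean of 1609 ± 142 (SD, n = 10), and 2 of them lay below the lowest LD animal. The HD animals ranged from 1068 to 1824 and the BD animals from 1150 to 1872, both wider than the LD range. The limma estimate was -0.16 ± 0.13 for VHD minus LD (unadjusted p = 0.207), -0.13 ± 0.11 for HD minus LD and 0.025 ± 0.098 for BD minus LD, and the slope was -0.056 ± 0.040 per step. The ratio of NTRK2 to NTRK3 was 2.57 ± 0.15 log2 units for LD and 2.70 ± 0.35 for BD animals. It was 2.78 ± 0.33 for HD and 2.94 ± 0.37 for VHD animals (SD). These means were taken without cohort in the model, and the ratio was not tested. Only cohort 7a held both VHD and LD animals. NTRK3 was lower in deeper libraries, with r = -0.61 against log2 depth over 30 animals (permutation p = 0.00045, adjusted over 7 genes 0.00315) and rho = -0.64 (p = 0.0002, adjusted 0.0014). The correlation was -0.61 without the 2 libraries farthest from the median depth, and -0.81, -0.46 and -0.44 within cohorts 4, 5 and 7a. A correlation with depth at least this far from 0 was seen in 6.22% of the tested genes, and the part of depth in the NTRK3 values was not tested beyond a model with depth as a term.

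NGFR, the p75 receptor that is scarce in adult cortical neurons, was measured with 3 to 33 reads per library. The LD animals ranged from 5.34 to 22.9 normalized reads with a median of 10.4, the BD animals from 5.54 to 26.96 with a median of 14.4, the HD animals from 4.24 to 19.1 with a median of 9.98, and the VHD animals from 4.15 to 21.9 with a median of 10.2. The categories covered nearly the same range. The estimates were -0.29 ± 0.43 for VHD, -0.31 ± 0.36 for HD and 0.25 ± 0.33 for BD minus LD, and the interval for VHD minus LD, from -1.16 to 0.58, held changes of either sign.

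SORT1, the receptor that carries the BDNF precursor, differed little between categories. The LD animals ranged from 2220 to 3079 normalized reads with a median of 2611, the BD animals from 2294 to 3009 with a median of 2674, the HD animals from 2286 to 3102 with a median of 2890.4, and the VHD animals from 2229 to 2938 with a median of 2638. The estimates were 0.054 ± 0.097 for VHD, 0.11 ± 0.082 for HD and 0.034 ± 0.076 for BD minus LD, with unadjusted limma p-values of 0.581, 0.193 and 0.653. The sign of the VHD, HD and BD estimates and of the slope turned with the model, as listed with the processing alternatives. The values followed the library numbers, with means of 2960 ± 121, 2603 ± 211, 2486 ± 112 and 2419 ± 189 normalized reads in the 4 sets in numerical order (SD, n = 8, 8, 7 and 7). The lowest SORT1 library of the first set, at 2722, was above all libraries of the last 2 sets, which reached 2627 and 2674. SORT1 was also lower in deeper libraries, with r = -0.55 (permutation p = 0.002, adjusted over 7 genes 0.007) and rho = -0.58 (p = 0.00106, adjusted 0.00371), and with r = -0.60 without the 2 libraries farthest from the median depth. Within cohorts 4, 5 and 7a the correlation with depth was -0.55, -0.71 and -0.78, and 10.2% of the tested genes were at least this far from 0. How far set or depth enters the category comparison of SORT1 was not tested beyond the models that hold them as terms.

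SORCS1, a sorting receptor of neurons, ranged from 592 to 878 normalized reads in LD animals, from 612 to 801 in BD animals, from 553 to 828.9 in HD animals and from 588 to 912 in VHD animals. Of the VHD animals, 5 of 6 lay below the LD mean, and the sixth, at 912, was the highest of all 30. The estimates were -0.076 ± 0.11, -0.035 ± 0.094 and -0.012 ± 0.087 for VHD, HD and BD minus LD. SORCS1 had the smallest p of the 7 genes for any difference between cohorts, an unadjusted limma p of 0.0919, with medians of 734 in cohort 4, 684 in cohort 5, 836 in cohort 7a and 719 in cohort 7b.

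SORCS3, a postsynaptic sorting receptor, ranged from 524 to 935 normalized reads in LD animals with a median of 754, from 700 to 918 in BD animals with a median of 758, from 646 to 989 in HD animals with a median of 796, and from 660 to 867 in VHD animals with a median of 773. The 2 highest HD animals were above every LD animal, and the ranges otherwise overlapped. The estimates were 0.12 ± 0.12 for VHD, 0.19 ± 0.10 for HD and 0.077 ± 0.096 for BD minus LD, and the unadjusted limma p of HD against LD was 0.0737.

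**Figure D2:**
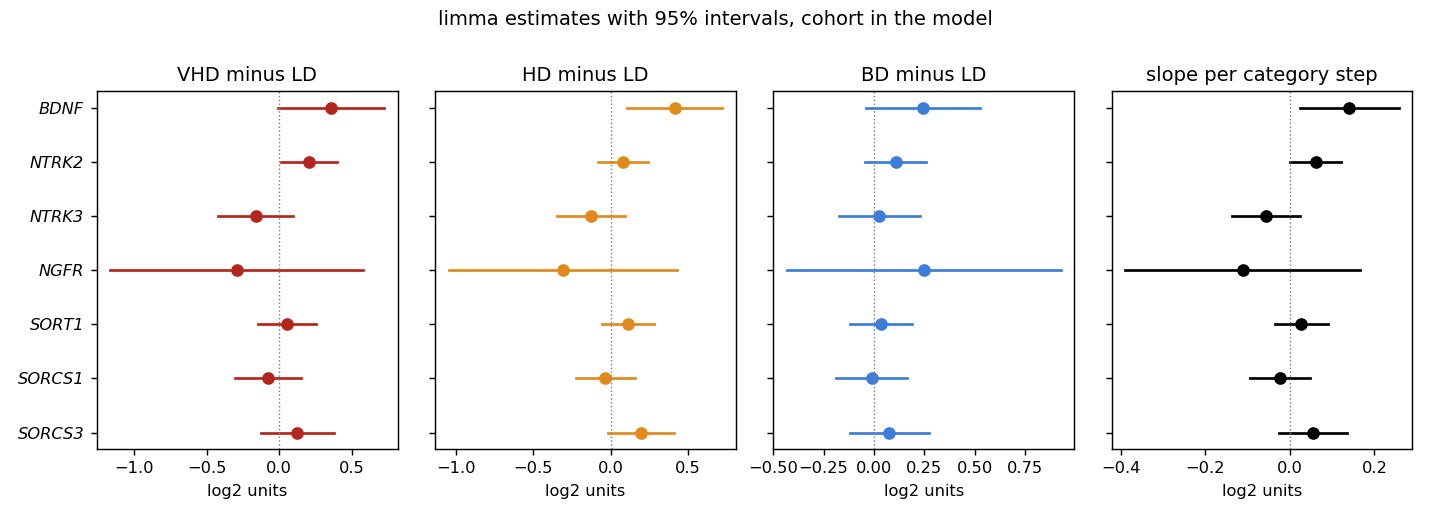
Differences from LD in log2 units for VHD, HD and BD animals and the slope per category step (horizontal axes, a separate scale in each panel), for the 7 tested genes. Points are limma estimates with cohort in the model and lines are 95% intervals. The intervals of BDNF lie above 0 for HD minus LD and for the slope, and that of NTRK2 for VHD minus LD and for the slope, before any adjustment for the 12935 genes tested.

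Among the 7 tested members, as among all tested genes, no category comparison gave a call after adjustment. With 7 members, the counts before adjustment are too small to be read as shares. In VHD against LD, 0 of 7 members and 0 of 12935 genes (0%) passed an adjusted p of 0.05 in limma and in edgeR, and NTRK2 alone was under 0.05 before adjustment in both, as were 453 genes (3.5%) in limma and 492 in edgeR. In HD against LD, 0 of 7 passed in both tools, and BDNF alone was under 0.05 before adjustment, where 1623 genes (12.5%) were in limma and 1518 in edgeR. BDNF ranked 427th by p in that comparison. In BD against LD, 0 of 7 members were under 0.05 even before adjustment, beside 394 genes (3.05%) in limma and 345 in edgeR. In the slope over the 4 categories, 0 of 7 passed and BDNF and NTRK2 were under 0.05 before adjustment, beside 799 genes (6.18%) in limma and 814 in edgeR. The 3 category comparisons share the LD animals, so that they do not support each other. For any difference between categories, 0 of 7 were under 0.05 before adjustment, beside 727 genes (5.62%) in limma and 668 in edgeR.

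No member passed the test for a difference between cohorts, which differed in mean age. With 7 members, counts of 0 do not show that a cohort difference is absent. For any difference between cohorts, 0 of 7 members were under 0.05 before adjustment, beside 1040 genes (8.04%) in limma and 1059 in edgeR, and 0 genes passed after adjustment in both. In cohort 4, the oldest, against cohort 7a, the youngest, 0 of 7 were under 0.05 before adjustment, beside 1183 genes (9.15%) in limma and 1117 in edgeR, with 0 after adjustment. In that comparison the estimates were -0.14 ± 0.15 for BDNF, 0.11 ± 0.076 for NTRK2, -0.14 ± 0.10 for NTRK3, -0.26 ± 0.35 for NGFR, -0.013 ± 0.079 for SORT1, -0.17 ± 0.090 for SORCS1 and 0.18 ± 0.10 for SORCS3. The slope over drinking categories differed between cohorts in 0 of 7 members before adjustment, beside 2.24% of the tested genes, with unadjusted limma p-values of 0.159 to 0.825.

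Across animals, BDNF and SORCS3 varied together. Over 30 animals their log2 values had r = 0.64 (permutation p = 0.00014, adjusted over 21 pairs 0.00294) and rho = 0.67 (p = 9e-05, adjusted 0.00189). The correlation was 0.61 without the 2 animals farthest from the BDNF median and 0.77 after category and cohort were taken out. It was 0.83, 0.69 and 0.84 within cohorts 4, 5 and 7a, and 0.82, 0.67, 0.42 and 0.21 within the LD, BD, HD and VHD animals. Within the 10 animals below the gap in BDNF it was 0.22 and within the 20 above it 0.41. A split on the BDNF values narrows their range, so these values cannot be compared with those above. Against log2 depth over all animals, r was -0.15 for BDNF and 0.054 for SORCS3 (permutation p = 0.411 and 0.775, adjusted over 7 genes 0.904 for both). Within cohorts 4, 5 and 7a it was -0.0040, -0.69 and -0.024 for BDNF, and 0.13, -0.35 and 0.074 for SORCS3. Of 12934 other tested genes, 0.162% had an r with BDNF at or above that of SORCS3, which ranked 21st, and the median gene had r = 0.0061. Among the other pairs the smallest adjusted p was 0.581 for r, that of NTRK2 with NTRK3 (r = -0.35), and BDNF with its receptor NTRK2 had r = 0.16 (permutation p = 0.392, adjusted 0.916).

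**Figure D3:**
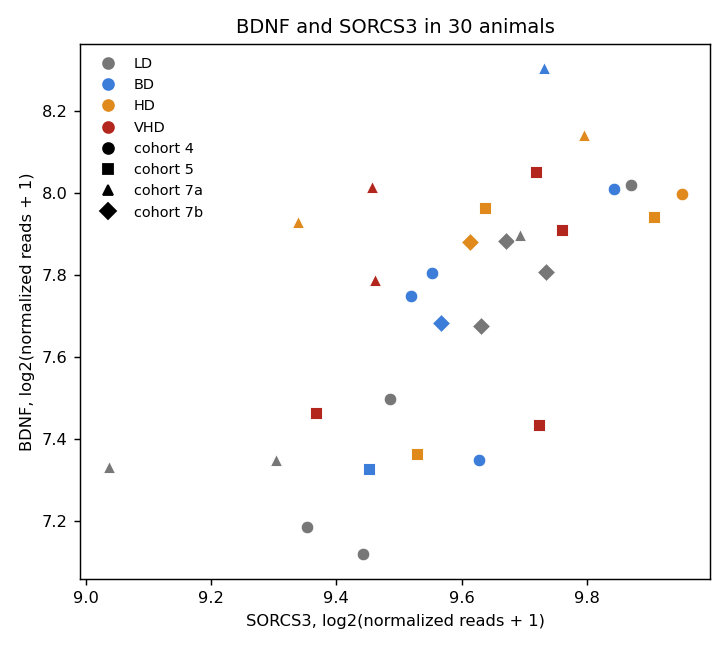
BDNF against SORCS3 in 30 animals, both as log2(normalized reads + 1), with color for the drinking category and shape for the cohort. The points run from low in both genes to high in both (r = 0.64), with 10 animals below and 20 above a gap in BDNF.

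The genes whose log2 values were most like each member over the 30 animals are given as descriptions, since all share libraries and depth. For BDNF they were SNAP91 (r = 0.73), PRKCB (0.70), LPPR4 (0.70), TNFAIP8L3 (0.69) and UBE2A (0.68). SNAP91 encodes a clathrin adaptor of synaptic vesicles and PRKCB a protein kinase C. For SORCS3 they were ADCY8 (0.79), a calcium-stimulated adenylyl cyclase, PLCXD2 (0.78) and GABRA5 (0.75), a subunit of the GABA-A receptor. For NTRK3 they were CACNA1A (0.88), the pore of P/Q-type calcium channels, IGSF9B (0.88) and LENG8 (0.87). For SORT1 they were UBE2V1 (0.84), YWHAG (0.83) and TOP1 (0.81), and for NTRK2 they were MYBPC1 (0.69), GNG12 (0.64) and ITGA2 (0.64). SORCS1 was most like SH3RF1 (0.65), and NGFR was most like MGP (0.62). After category and cohort were taken out, the gene most like BDNF was GPNMB (0.78) and that most like SORCS3 was NRP1 (0.84), the neuropilin receptor of axon guidance.

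The exon table lists BDNF as 1 exon of 4742 bases, at 38115626 to 38120367 on chromosome 11. Several upstream exons are known to start BDNF transcripts from separate promoters, but with 1 listed exon no exon usage could be measured for this gene. Whether reads of an antisense transcript over this interval were kept apart by strand is not given in the sources used here.

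NTRK2 is listed with 12 exons and 6672 bases in all, between 10110715 and 10256296 on chromosome 9, and the exons are numbered here by increasing coordinate. Exon 1, with 5173 bases, took 42.0% to 51.3% of the reads of the gene, with a median of 46.2%, and yet had the lowest level per kilobase, 914 ± 124 normalized reads (SD, n = 30). Exon 4, with 36 bases at 10185209 to 10185244, had the highest, 9057 ± 3265, and the other exons lay in between, from 1741 for exon 12 to 5423 for exon 11. The level of exon 2 was 2.71 times that of exon 1, and exon 11 was 3.11 times exon 12. The shortest exon thus had the highest level per kilobase and the longest exon the lowest. The part of exon length in these levels and steps was not tested, so they are not given as exon usage. The files do not say which of these exons belong to the truncated and which to the kinase form of TrkB, so the shares are not given as shares of the isoforms.

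The exon 4 share of NTRK2 fell into separate levels, a pattern noticed after the values were seen. In 5 libraries it was 0.937% to 1.07%, in 1 HD library 2.13%, in 1 LD library 2.33%, and in the other libraries it reached 3.33% to 4.46%. The 5 lowest were 0 of 10 LD, 0 of 7 BD, 2 of 7 HD and 3 of 6 VHD animals, with 4 of the 5 in cohort 5 and 1 in cohort 7a. Relative to the other NTRK2 exons, exon 4 was -0.74 ± 0.37 log2 units in VHD minus LD (unadjusted limma p = 0.055) and its slope was -0.25 ± 0.12 per category step (unadjusted p = 0.0439, adjusted over all exons 0.998). Exon 9, of 69 bases, was split in a like way, with 4 libraries at 1.29% to 1.52% and 26 at 2.45% to 4.22%, and these 4 were 2 LD, 1 BD and 1 HD animals. Exon 10, of 72 bases, had 14 libraries at 1.85% to 2.81% and 16 at 3.46% to 4.84%, and the 14 were 5 LD, 3 BD, 4 HD and 2 VHD animals. Exons 4, 9 and 10 were the 3 shortest of the gene, and their widest gaps covered 0.300, 0.317 and 0.218 of the range of the share. Exon 11, of 75 bases, had a gap of 0.264, with 1 library apart. Exon 2, of 100 bases, had a gap of 0.214, with 2 libraries apart at 4.60% and 4.67%. The low libraries of exon 4 and of exon 9 were not the same animals.

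**Figure D4:**
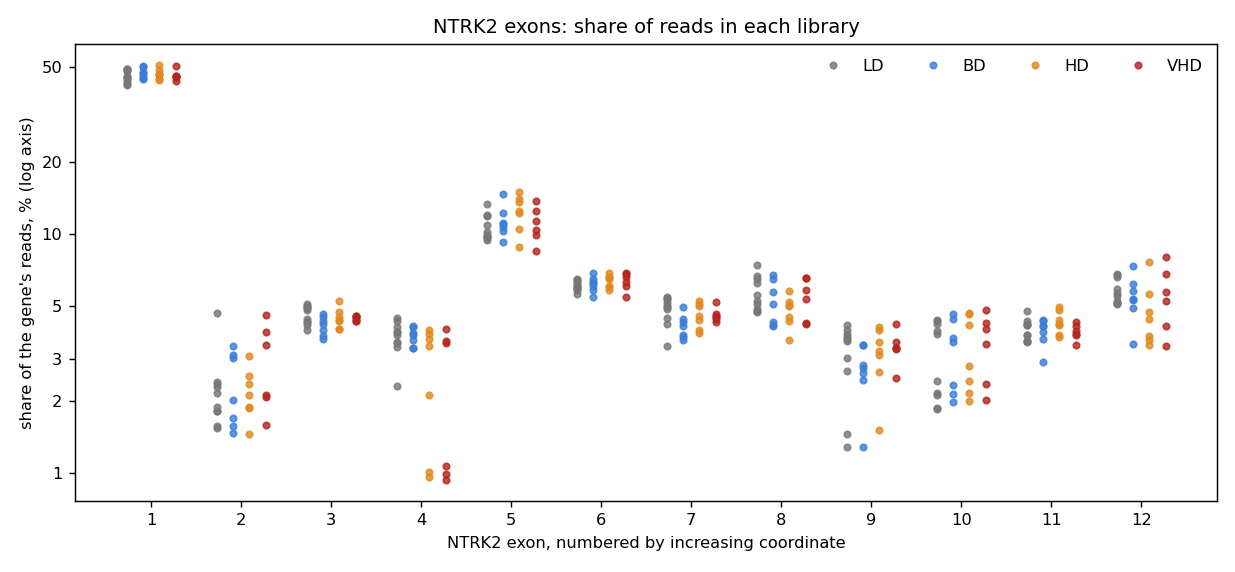
Share of the reads of NTRK2 in each of its 12 exons, in percent on a log axis, for each library, with the categories LD, BD, HD and VHD side by side in each exon. Exon 1 takes 42.0% to 51.3% of the reads, and the exon 4 share drops to 0.937% to 1.07% in 3 VHD and 2 HD libraries.

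No exon of NTRK2 passed an adjusted p of 0.05 in any of the 5 comparisons of relative exon values in limma, and neither did any of the 118342 exons tested (0%). Before adjustment, 0 of 12 NTRK2 exons were under 0.05 in VHD against LD, beside 4296 exons (3.63%), and 1 of 12, exon 4, in the slope, beside 5427 exons (4.59%). In cohort 4 against cohort 7a it was exon 1 alone, 0.20 ± 0.071 log2 units higher relative to the other exons (unadjusted p = 0.00786, adjusted 0.924), beside 6250 exons (5.28%). For any difference between categories 0 of 12 were under 0.05 before adjustment, beside 6139 exons (5.19%), and for any difference between cohorts exon 1 was (p = 0.0277), beside 5031 exons (4.25%). A test that shares 1 variance among the exons of a gene, diffSplice of limma, called 100 of 11243 genes in VHD against LD, 172 in the slope and 291 in cohort 4 against 7a, and NTRK2 was not among them, with adjusted Simes p-values of 0.995, 0.750 and 0.991. A variance shared in this way had given false calls in simulated data. The diffSplice calls are therefore not read as differences in exon usage. edgeR was not run on exons.

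The pathway lists held 119 genes, members included, from the processing of the BDNF precursor to genes induced by activity, and 89 of these were tested without being members. None passed an adjusted p of 0.05 in limma or edgeR. Before adjustment, 2 were higher and 2 lower in VHD against LD (4.49%, beside 3.5% of all tested genes), 7 higher and 8 lower in HD (16.9%, beside 12.5%), 1 higher and 1 lower in BD (2.25%, beside 3.05%), and 4 higher and 3 lower in the slope (7.87%, beside 6.18%). Among the MAP kinase and PI3 kinase genes below the Trk receptors, HRAS, a Ras GTPase, had -0.28 ± 0.11 log2 units in VHD minus LD (unadjusted limma p = 0.0148). NRAS, another Ras GTPase, had a slope of 0.090 ± 0.039 per step (unadjusted p = 0.0262). PLCG1, the phospholipase that docks on Trk receptors, had a slope of -0.052 ± 0.024 (unadjusted p = 0.0382). USF1, a factor that binds the BDNF gene, had -0.18 ± 0.085 in VHD minus LD (unadjusted p = 0.0462). In the lists of precursor processing and of p75 partners, 0 of 8 and 0 of 7 tested genes were under 0.05 before adjustment in VHD against LD or in the slope.

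Among 20 activity-induced genes, the class to which BDNF itself belongs in neurons, 16 had estimates above 0 in VHD against LD and 4 below, with a median of 0.16 log2 units beside -0.00033 over all tested genes and 49.9% of them above 0. The 20 genes share the same libraries, and the list was chosen with earlier results of these data known. Their signs are therefore not separate results. None of the 20 passed after adjustment in limma or edgeR, and 1 was under 0.05 before it, beside 3.5% of all tested genes. This was NR4A3, a nuclear receptor induced by calcium signals, at 0.52 ± 0.19 (unadjusted limma p = 0.0106). The related NR4A2 had 0.60 ± 0.31 (p = 0.0578) in VHD minus LD and a slope of 0.20 ± 0.096 per step (unadjusted p = 0.0449). In HD and BD against LD, 14 and 15 of the 20 were above 0, beside 50.5% and 50% of all tested genes, with medians of 0.11 and 0.080. In cohort 4 against cohort 7a, 16 of the 20 were below 0 with a median of -0.17, while 51.8% of all tested genes were above 0, and 7 of them were lower before adjustment, beside 4.21% of all tested genes.

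Of the cell type marker genes, 0 passed an adjusted p of 0.05 in limma or edgeR in any of these comparisons, and some lists leaned to 1 side. The 10 mural cell and fibroblast markers had a median of -0.64 in HD minus LD, with 7 of 10 lower before adjustment (6.68% of all tested genes were) and summed levels of 2540 to 6932 in HD and 3233 to 6462 normalized reads in LD animals. In VHD minus LD, 10 of 10 were below 0, while 49.9% of all tested genes were above 0. Of these 10 markers, 0 were under 0.05 before adjustment. Their median was -0.25, and the sums were 2902 to 5175 in VHD animals. The 8 oligodendrocyte markers had a median of 0.22 in VHD minus LD, with 7 of 8 above 0 and 0 under 0.05 before adjustment. In HD minus LD their median was -0.25, with 0 of 8 above 0, beside 50.5% of all tested genes. There 1 of the 8 was lower before adjustment, beside 6.68% of all tested genes. Their summed levels were 4193 to 11440 in VHD, 3455 to 6156 in HD and 4030 to 10790 normalized reads in LD animals. In cohort 4 against cohort 7a all 8 were above 0, beside 51.8% of all tested genes, with a median of 0.76. Before adjustment 7 of the 8 were higher, as were 639 of the 12935 tested genes. Of the 8 astrocyte markers, 7 were below 0 in HD minus LD, with a median of -0.099. Before adjustment 2 were lower, beside 6.68% of all tested genes. In BD minus LD, 6 of the 8 astrocyte markers were below 0, also with a median of -0.099. Before adjustment 1 was lower, as were 192 of the 12935 tested genes. The 6 excitatory neuron markers in the table had medians of 0.045 in VHD and 0.043 in HD minus LD. A further model held the log2 summed levels of astrocyte, excitatory neuron, and mural and fibroblast markers as covariates, and no other marker list. In it the BDNF estimate was 0.27 ± 0.17 and the NTRK2 estimate 0.17 ± 0.085 for VHD minus LD. The part of single cell types in these estimates was not tested.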

How the data were processed

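RNA was extracted from dissected area 32, depleted of ribosomal RNA and made into libraries with a stranded kit, per the labels' protocols. CASAVA, FastQC, STAR 2.3.0e and edgeR are named in the submitters' processing notes. The values are the deposited tables of the authors, a normalized signal in which each library was scaled to a common upper quartile. Build, annotation, counting program and coordinate base were not given in the sources used here. Dividing by the smallest step of a library gave whole reads for 100% of values, within 0.01 of a whole number. Gene symbols are those of the tables.

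All 30 libraries were used, grouped by the labels. The labels speak of 31 animals, of which the authors removed 1 as an outlier. Replicate numbers follow the accession order and pair nothing. The members and lists were chosen with earlier results of these data known. A gene entered the test if 6 or more libraries had 10 or more normalized reads, which held for 12935 genes and for 7 of the 8 members, and was taken as log2(value + 1), with limma 3.58.1 (lmFit and eBayes with a mean trend) in R 4.3.3. The model held drinking category and cohort, and p-values were adjusted by Benjamini-Hochberg over all tested genes, with a threshold of 0.05. For each exon, the relative value log2(exon + 1) minus log2(sum of the other exons + 1) was tested in the same model for the 118342 exons that had 5 or more in 6 or more libraries. edgeR 4.0.16 was run on the recovered reads as an alternative. Estimates are given ± SE and means ± SD. Correlations used 100000 permutations (scipy 1.17.1, two-sided). The genes most like a member are those with the highest Pearson r, 5 for BDNF and 3 for each other member, and from each pathway list the 3 smallest p-values were considered for naming; some of these are not reported here. The scripts were tested on simulated data.

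Alternatives were pseudocounts of 0.25 and 4, no filter, a minimum of 100, median-of-ratios scaling, edgeR, array weights, models without cohort or without category, with library sets (4 sets of 8 consecutive library numbers), depth or marker levels, without the 6 libraries under 6 M reads, the compared groups only, single cohorts, and each library left out. The marker levels were the log2 sums of the astrocyte, excitatory neuron, and mural and fibroblast lists only. The fits of the slope within cohorts 4 and 5 were added after seeing the data.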

Additional observations from a re-analysis of the deposited data

Results flagged for a closer look

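In 104 groups examined, 4 had 1 animal farther from the others than Dixon's 95% limit allows, and chance gives about 1 in 20. The lowest BDNF value among the 7 HD animals, 163.8 normalized reads in HD replicate 1, stood apart from the next lowest at 234.7. This library also had 1 of the 5 low exon 4 shares of NTRK2. The exon 1 share of NTRK2 was 50.7% in VHD replicate 3, the highest of 6 VHD animals, the next being 46.2%. The exon 2 share was 4.67% in LD replicate 10, the next of 10 LD animals being 2.40%, although VHD replicate 5 had 4.60%. The exon 4 share was 2.33% in LD replicate 1, the lowest of the LD animals, the next being 3.36%.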

How the results depend on the processing

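No paired analysis was possible because the replicate numbers follow the accession order and tie no animals together. Of 2086 alternative values of 49 tested results of the 7 members, 2047 kept their sign and their side of the threshold. Another 39 changed sign, and 0 of all values passed an adjusted p of 0.05 (limma or edgeR). The tests for any difference between categories or between cohorts give a statistic that is never negative. Their values count among the 2047 although they could not change sign. The changed signs included those of NGFR, whose main estimates of -0.29 for VHD, -0.31 for HD and 0.25 for BD were among the largest of the 7 genes. BDNF kept its sign, between 0.20 and 0.46 for VHD, 0.30 and 0.51 for HD and 0.055 and 0.39 for BD minus LD, where the lowest value came with library sets in the model (unadjusted p = 0.704). With each library left out, its unadjusted p stayed under 0.05 in 30 of 30 fits for HD and in 12 of 30 for VHD, and that of NTRK2 for VHD in 21 of 30. NTRK2 for VHD minus LD was 0.031 with the compared groups only, which is the same estimate as within cohort 7a.

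Sign changes, in log2 units, were as follows. With library sets in the model, SORT1 was -0.023 for HD, -0.019 for BD, -0.0011 for the slope and 0.074 for cohort 4 minus 7a, and for BD minus LD NTRK3 was -0.034, NGFR -0.073 and SORCS1 0.0042. With marker covariates, SORT1 was -0.021 for VHD and -0.0089 for the slope. With depth in the model, NTRK3 was -0.025 and SORT1 -0.0012 for BD. NTRK3 for BD was also -0.0016 without the cohort term, -0.059 without libraries under 6 M reads, -0.037 with the compared groups only and -0.038 within cohort 4. With the compared groups only, NGFR was 0.61 for VHD and SORCS1 0.023 for HD. Within cohort 7a, NGFR was 0.61 for VHD, 0.17 for HD and 0.16 for the slope, and NTRK3 was 0.051 for HD. Within cohort 4, NGFR was -0.40 and SORCS1 0.084 for BD, and SORCS1 had a slope of 0.097. With each library left out in turn, SORCS1 ran from -0.17 to 0.061 for VHD, from -0.055 to 0.030 for BD and from -0.046 to 0.013 for the slope. NTRK3 ran from -0.022 to 0.10 and SORT1 from -0.0098 to 0.080 for BD, and SORT1 from -0.037 to 0.038 for cohort 4 minus 7a. The cause of these changes was not tested.

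Counts over all genes moved from 0 to 1 for HD against LD without the cohort term and to 1 for any cohort with library sets. For cohort 4 against 7a the count was 26 without the category term, 15 with library sets, and 0 to 7 with each library left out, 7 without BD replicate 1 and 1 without LD replicate 9. For exons it was 1 for any category without the cohort term. The diffSplice test counts genes and called 100, 172 and 291 for VHD against LD, the slope and cohort 4 against 7a. Its shared variance had given false calls in simulated data. Counting error is largest for NGFR and NTF3 among the 8 genes, with at most 33 and 6 reads in a library.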
